A study of Mus musculus with 38 samples.

Results

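The wild-type Th2 transcriptome was compared with the wild-type Th1 transcriptome in 2 matched pairs of mouse CD4 T helper cultures. One pair carried no vector and was cultured for 7 days. The other carried a control vector and was labelled day 5. These 4 libraries were chosen by genotype, lineage and culture from the 14 RNA libraries in a series of 38 samples, most of which are ChIP libraries not analysed here. The samples of the series serve to relate STAT proteins, T-bet and GATA3 to active enhancers and expression in helper T cells. A second no-vector WT Th1 library was left out because it stands apart from the other libraries. Where adding it ended the call of a named gene, the adjusted p with it is given, and for some genes also its FPKM.

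All 4 libraries came from C57BL/6J mice without a mutated allele, as naive CD4+ T cells sorted by flow cytometry from spleen and lymph nodes and polarised in vitro. The WT Th2 no-vector culture was restimulated for 2 h through CD3 and CD28 with IL-4, and the WT Th1 no-vector culture for 2 h through CD3 and CD28 with IL-12. The WT Th2 control-vector culture received IL-4 with an antibody to IFNG and then IL-2 with IL-4, and the WT Th1 control-vector culture received IL-12 with an antibody to IL-4 and then IL-2 with IL-12. Before that, both had been activated through CD3 and CD28 and exposed to a retrovirus. In the Th1 culture it was pMY-IRES-hNGFR, which encodes a human NGFR without its intracellular part, and the labels name no construct for the Th2 control vector. Another label gives 7 days for the Th1 control-vector culture. It was restimulated for 2 h, whereas the sources used here do not say whether the Th2 control-vector culture was, so that lineage and restimulation cannot be told apart in this pair. Polarisation in vitro with added cytokine sets both lineages apart from helper cells formed in an animal. Each group held 1 library, and the labels do not say that the pairs came from separate cultures or animals. The p-values below therefore reflect no more than the spread among these 4 samples, possibly technical in origin.

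Th1 and Th2 cells are alternative fates of a naive CD4+ T cell. IL-12 acts through STAT4 and the factor T-bet (gene Tbx21) towards Th1 cells, which secrete IFNG and activate macrophages against intracellular microbes. IL-4 acts through STAT6 and the factor GATA3 towards Th2 cells, which secrete IL-4, IL-5 and IL-13 and act against helminths and in allergy.

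Expression was measured in FPKM (fragments counted per length of transcript and per mapped fragment of each library), and between 9793 and 10092 genes per library reached 1 FPKM. Small RNA genes held 4.43% to 6.19% of all FPKM, against 20.7% in the WT Th1 library left out. The tables give no read counts, so depth in reads is unknown. The upper bound that Cufflinks lists lay a median 8.10% to 8.70% above the value for genes at 3 to 10 FPKM and 1.84% to 2.17% above 100 FPKM. The labelled cell types stood against their markers as follows. The 6 T cell markers summed to 1341 and 808 FPKM in the Th2 libraries (no vector, then control vector) and to 1530 and 825 in the Th1 libraries. The 6 Th2 markers summed to 1289 and 449 FPKM in the Th2 libraries against 56.7 and 83.2 in the Th1 libraries, and the 6 Th1 markers to 31.9 and 18.4 FPKM in the Th2 libraries against 9300 and 4485 in the Th1 libraries. Few genes carried these sums: without a vector, Il4 had 513 and Il24 589 FPKM in Th2, and Ifng 8326 FPKM in Th1. With the control vector Il13 went the other way, at 38.9 FPKM in Th2 against 42.0 in Th1, the only one of these markers to do so. Several of them are also among the most different genes below, so the sums are no independent check of the labels. The 4 B cell, 4 fibroblast and 3 NK cell markers were each below 1 FPKM in all 4 libraries, and of the 2 CD8 markers Cd8a reached 0.118 FPKM at most, while Cd8b1 had 5.65 and 2.01 FPKM in the Th2 libraries and 4.39 and 2.53 FPKM in the Th1 libraries. Of 6 mast cell and basophil markers, Fcer1a and Ms4a2 were at 0 in all 4 libraries. Cpa3, however, had 10.2 FPKM in the no-vector Th2 library and Kit 10.8 FPKM in the no-vector Th1 library. Emr1, a macrophage marker, had 8.42 FPKM in the no-vector Th2 library, where Csf1r was at 0 and Lyz2 and Cd14 were below 1 FPKM. The summed level of 4 entries of erythroid genes was 10.3 FPKM in that library and 0.435 to 1.52 FPKM in the other 3. The part of these transcripts in the results was not tested.

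Of 23700 entries, 8077 had at least 3 FPKM in 1 library of each pair. A gene was called where limma, fitted to log2(FPKM + 1) with a term for culture, gave a Benjamini-Hochberg adjusted p under 0.05. Differences below are Th2 minus Th1 on this scale, the mean of both pairs, with the standard error (SE) of the fit over 4 libraries. The scale understates the change of genes at low FPKM. In all, 273 genes were called (3.38% of those tested), 81 higher (1.0%) and 192 lower (2.38%) in Th2 cells. At 2-fold or more in both pairs, with no test, 91 genes were higher (1.13%) and 222 lower (2.75%). The called set and the 2-fold set shared 78 of the higher and 181 of the lower genes. Of 67 called genes that were in the gene lists or among the most different, 42 were not called by limma without the culture term. Among these were Hopx, Icam1, Ifitm1, Il31, Penk, Ly6c1 and Ly6c2 (adjusted p = 0.0561 to 0.295), whose calls held with the left-out Th1 library added. In the fit over 12 libraries of the series 10 of the 67 were not called, which were Snora2b, Il5, Il10, Il21, Csf1, Ccl4, Ccr8, Ifngr2, Il1rl1 and Cyp11a1 (adjusted p = 0.0748 to 0.436). Besides the 4 wild-type libraries, that fit held STAT4 and STAT6 knockout cultures and cultures with a T-bet or GATA3 vector. It had a term for each knockout and each factor, and it counted STAT6 knockout cells as Th2. It is therefore not a check within wild-type cells alone.

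The lineages were further apart in the no-vector pair for genes higher in Th2. There 715 genes were at least 2-fold higher (8.85%) and 575 lower (7.12%) in Th2, while in the control-vector pair 138 were higher (1.71%) and 402 lower (4.98%). Of the genes higher in the no-vector pair, 12.7% were also higher in the control-vector pair, and of those higher in the control-vector pair 65.9% were also higher in the no-vector pair. Of the genes lower in each, the shares were 38.6% and 55.2%. Over all tested genes, which are not independent replicates, the pair differences had a Pearson correlation of 0.54 and a Spearman rank correlation of 0.34. Their medians were 0.01 without a vector and −0.08 with the control vector. Scaling the libraries to a common upper quartile moved the control-vector median to 0.03, and quantile normalization moved it to 0.04, a shift of just over 0.1 that touches every difference in that pair.

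**Figure D1:**
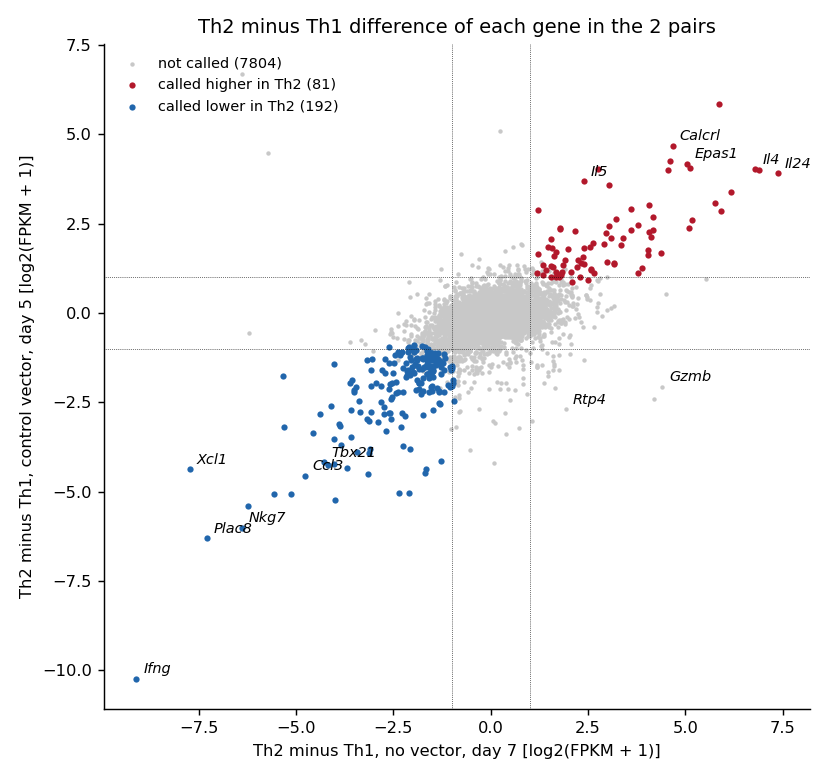
Th2 minus Th1 difference in log2(FPKM + 1) of the 8077 tested genes, in the no-vector pair (x axis) and the control-vector pair (y axis). Red points are the 81 genes called higher in Th2, blue points the 192 called lower, grey points the rest, and dotted lines mark 2-fold. Ifng lies lowest on both axes, at −9.10 and −10.23, and Gzmb lies at 4.41 and −2.06.

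Among the lineage transcription factors and STATs, the factors of the Th1 programme were lower in Th2 cells, while among those of the Th2 programme only Epas1 passed the test. Tbx21 (mm9 chromosome 11, 96959321 to 96976645) had 3.61 and 2.43 FPKM in the Th2 libraries, no vector and then control vector, against 88.4 and 61.0 FPKM in the Th1 libraries. Both pairs gave nearly the same difference, and the mean was −4.23 ± 0.26 (SE, limma adjusted p = 7.28e-05). Hopx, a homeodomain-only protein that is expressed in Th1 cells, had 6.14 and 1.98 FPKM in Th2 against 115 and 33.6 FPKM in Th1. Runx3, which acts with T-bet at Ifng, had 6.15 and 12.6 FPKM in Th2 against 58.2 and 32.0 FPKM in Th1, with a difference of −2.16 ± 0.40 (limma adjusted p = 0.0235). Adding the Th1 library left out, where Runx3 stood at 111 FPKM, gave a limma adjusted p of 0.227 for it and ended the call.

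Epas1, which encodes the hypoxia-inducible factor HIF-2 alpha, had 44.6 and 21.5 FPKM in Th2 against 0.375 and 0.250 FPKM in Th1. The groups were far apart, by 4.61 ± 0.31 (limma adjusted p = 9.91e-05). Gata3 (mm9 chromosome 2, 9778705 to 9800227) had 62.1 and 95.7 FPKM in Th2 against 35.4 and 24.9 FPKM in Th1. The Th2 values lay above the Th1 values in both pairs, by 0.79 and 1.90, but the mean of 1.35 ± 0.36 was not called (limma adjusted p = 0.0988). It was called under upper-quartile scaling (0.0149) and under quantile normalization (0.0151). The prior degrees of freedom, which weight the moderation across genes, were 24.3 and 20.0 there, against 7.73 in the fit as deposited. A gene's own spread thus counted less, and calls made only under a scaling, here and below, are not separate evidence for a gene. The signal transducers were not called either. Stat4 had 53.35 and 21.2 FPKM in Th2 against 60.8 and 41.0 FPKM in Th1 (limma adjusted p = 0.551). Stat6 had 35.6 and 65.9 FPKM in Th2 against 61.8 and 78.6 FPKM in Th1 (limma adjusted p = 0.598). Of the 21 tested members of this list, 1 was called higher and 3 lower. Over all tested genes 1.0% were called higher and 2.38% lower, and the counts of every list below are to be set against these shares. The lists are short, so a single call says little about a list. The median difference of the list was −0.34 without a vector and −0.25 with the control vector. Under upper-quartile scaling 4 were called higher and 5 lower. Maf, a factor that promotes Th2 cytokine expression, and Nfil3 were among those added. Their differences were 1.37 ± 0.34 and 1.28 ± 0.33 in the fit as deposited (limma adjusted p = 0.0721 and 0.0845). Among 10 tested factors of other helper fates none was called higher and 2 were called lower. These were Irf8, an interferon regulatory factor, with 10.0 and 32.6 FPKM in Th2 against 231 and 235 FPKM in Th1, and Zeb2, a repressor that acts with T-bet, with 0.883 and 4.57 FPKM in Th2 against 3.44 and 13.7 FPKM in Th1. Both calls ended when the left-out Th1 library was added (limma adjusted p = 0.0617 and 0.541).

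The cytokine genes included the gene furthest below 0 of all tested and several of those furthest above it. Ifng, the signature cytokine of Th1 cells (mm9 chromosome 10, 117878103 to 117882948), had 14.1 and 2.40 FPKM in Th2 against 8326 and 4074 FPKM in Th1. The difference of −9.67 ± 0.43 (limma adjusted p = 1.83e-05) lay beyond the spread between pairs, and the groups did not overlap. Il4 (mm9 chromosome 11, 53425963 to 53432167), whose product both marks and induces Th2 cells, had 513 and 173 FPKM in Th2 against 3.61 and 9.75 FPKM in Th1. It was higher by 5.41 ± 0.56 (limma adjusted p = 0.00108). Il12rb2, the signalling chain of the IL-12 receptor described below, and Calcrl, a neuropeptide receptor, stood with these genes at the extremes in both pairs. The 300 bases around the start of these 4 genes (250 before and 50 after it, from RefSeq, build GRCm38.p6, which is not the build of the gene positions above) are shown 5′ to 3′ on the gene's strand. The 4 genes were picked by hand as examples among the called genes, and others differed as much. Capitals mark each match to 1 of 4 motifs on either strand, described further below.
Ifng, chr10:118440796-118441095, plus strand: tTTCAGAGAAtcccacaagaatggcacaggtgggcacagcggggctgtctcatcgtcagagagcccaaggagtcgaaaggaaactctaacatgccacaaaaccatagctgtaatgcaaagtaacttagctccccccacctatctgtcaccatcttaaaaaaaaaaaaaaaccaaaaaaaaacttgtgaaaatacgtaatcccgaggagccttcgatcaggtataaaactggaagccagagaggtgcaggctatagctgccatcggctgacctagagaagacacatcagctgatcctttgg
Il12rb2, chr6:67376139-67376438, minus strand: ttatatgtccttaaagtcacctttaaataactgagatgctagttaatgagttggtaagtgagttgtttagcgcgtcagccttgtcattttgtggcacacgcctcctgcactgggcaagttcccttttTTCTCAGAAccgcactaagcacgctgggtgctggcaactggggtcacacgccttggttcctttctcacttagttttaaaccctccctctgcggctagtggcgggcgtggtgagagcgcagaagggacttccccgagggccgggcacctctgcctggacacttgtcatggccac
Il4, chr11:53618616-53618915, minus strand: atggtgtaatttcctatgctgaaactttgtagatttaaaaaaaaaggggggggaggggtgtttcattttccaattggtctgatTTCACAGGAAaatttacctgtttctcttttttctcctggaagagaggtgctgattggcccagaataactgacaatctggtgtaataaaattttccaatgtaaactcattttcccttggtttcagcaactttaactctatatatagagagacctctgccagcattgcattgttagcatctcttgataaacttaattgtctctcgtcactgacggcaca
Calcrl, chr2:84425217-84425516, minus strand: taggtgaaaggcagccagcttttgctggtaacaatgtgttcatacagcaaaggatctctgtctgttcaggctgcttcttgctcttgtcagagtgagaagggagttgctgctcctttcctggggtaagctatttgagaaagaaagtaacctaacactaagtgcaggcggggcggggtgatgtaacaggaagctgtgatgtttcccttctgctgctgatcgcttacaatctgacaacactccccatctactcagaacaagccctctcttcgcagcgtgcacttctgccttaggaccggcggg

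Ifng and Il12rb2 held a single match to the STAT motif with a spacing of 3, TTCNNNGAA. Il4 held a single match to the STAT6 motif with a spacing of 4 (TTC and GAA with 4 bases of any kind between them), and the window of Calcrl held no match to any of the 4.

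Of the 22 cytokine genes tested, 8 were called higher and 3 lower in Th2, against 1.0% and 2.38% of all tested genes. The other cytokine genes higher in Th2 went well beyond Il4. Il24, an IL-10 family cytokine, had 589 and 105 FPKM in Th2 against 2.56 and 6.04 FPKM in Th1. Il6 had 133 and 50.2 FPKM in Th2 against 0.138 and 2.20 FPKM in Th1. Il31, a cytokine of itch, had 1708 and 137 FPKM in Th2 against 30.7 and 15.2 FPKM in Th1. For each of these the no-vector difference exceeded the control-vector difference by more than 2 on the log2 scale, as it did for Il4 at 6.80 against 4.02. The mean differences were 5.64 ± 0.66 for Il24, 5.44 ± 0.55 for Il6 and 4.42 ± 0.57 for Il31 (limma adjusted p = 0.00207, 9.48e-04 and 0.00385). Il10, which dampens inflammation, had 894 and 45.0 FPKM in Th2 against 72.0 and 8.26 FPKM in Th1. Il17f and Csf1 completed the genes called higher, at 2.28 ± 0.40 and 2.05 ± 0.43. With the left-out Th1 library added, Il10, Il17f and Csf1 were not called (limma adjusted p = 0.0616, 0.149 and 0.834). That library had 97.4, 0.488 and 184 FPKM of these genes. Its Csf1 level lay above both Th2 libraries (147 and 92.4 FPKM).

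The Th2 effector cytokines next to Il4 differed in their pattern. Il5, which drives eosinophil production, had 4.53 and 15.4 FPKM in Th2 against 0.0547 and 0.283 FPKM in Th1. It was called (3.03 ± 0.39, limma adjusted p = 0.00392), and unlike Il4 its level was higher in the control-vector Th2 library. Without the culture term its limma adjusted p was 0.0755, and in a fit over 12 libraries 0.213. Il13, which acts on epithelium and smooth muscle, had 74.8 and 38.9 FPKM in Th2 against 14.7 and 42.0 FPKM in Th1. The pairs disagreed, at 2.27 and −0.11, and Il13 was not called (1.08 ± 0.50, limma adjusted p = 0.404). Besides Ifng, the cytokine genes called lower were Lif, of the IL-6 family, with 115 and 64.8 FPKM in Th2 against 438 and 293 FPKM in Th1, and Il21, a helper cytokine for B cells, with 16.6 and 0.917 FPKM in Th2 against 39.3 and 7.94 FPKM in Th1. Both calls ended with the left-out Th1 library added (limma adjusted p = 0.52 and 0.211). Il2, the T cell growth factor, had 341 and 535 FPKM in Th2 against 2762 and 1122 FPKM in Th1. It was lower in both pairs, by 3.01 and 1.07, and was not called (−2.04 ± 0.57, limma adjusted p = 0.114), but was called under both other scalings (0.0072 and 0.00367). The median difference of the list was 0.47 without a vector and −0.10 with the control vector, and upper-quartile scaling gave 0.01 in place of −0.10.

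**Figure D2:**
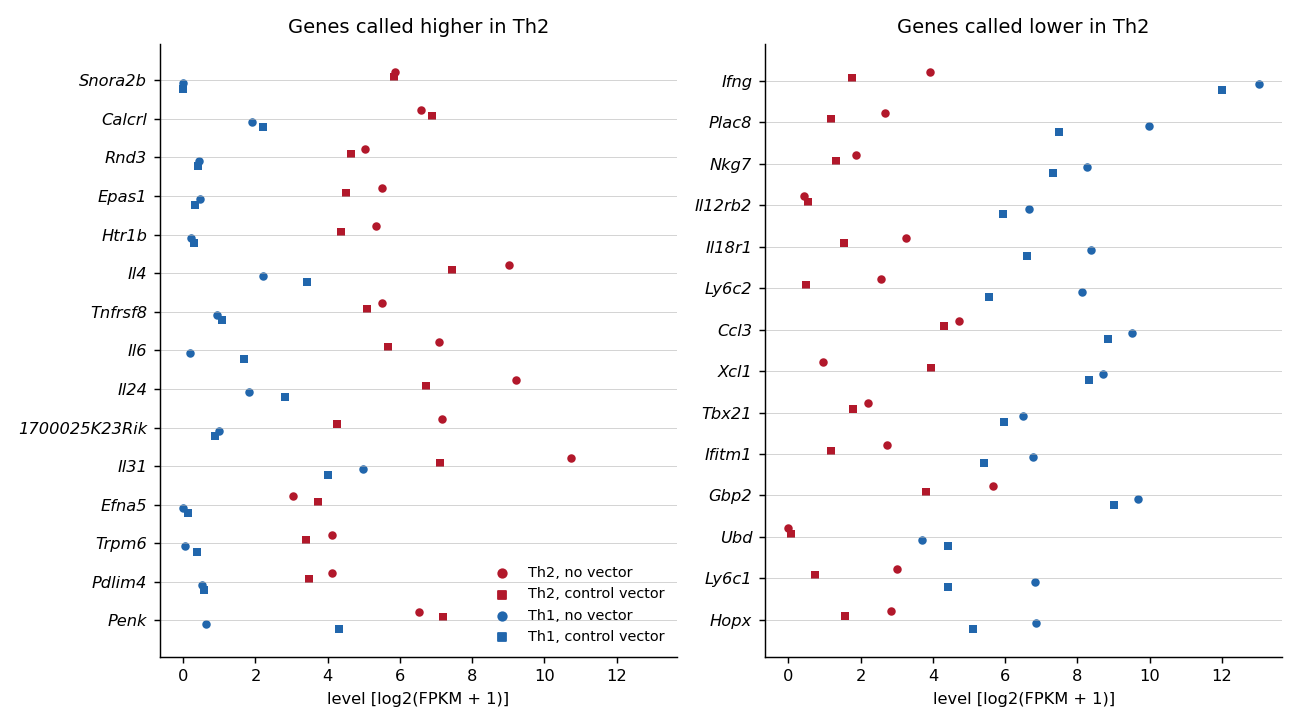
Level in log2(FPKM + 1) (x axis) of genes called higher (left) and lower (right) in Th2, among those with the largest smaller pair difference, in the Th2 libraries (red) and the Th1 libraries (blue), without a vector (circles) and with the control vector (squares). In every row both red points lie on one side of both blue points, and Ifng in Th1, at 8326 and 4074 FPKM, is the highest level drawn.

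Among TNF family ligands and growth factors, 1 of 13 was called higher and 2 lower. Penk, which encodes the opioid precursor proenkephalin, had 91.8 and 144 FPKM in Th2 against 0.543 and 19.0 FPKM in Th1, and was higher by 4.39 ± 0.59 (limma adjusted p = 0.00439). Tnfsf4, the ligand OX40L, had 3.25 and 21.0 FPKM in Th2 against 167 and 199 FPKM in Th1. The groups lay far apart, by −4.24 ± 0.47 (limma adjusted p = 0.00155), but the left-out Th1 library had 7.70 FPKM, below the control-vector Th2 library, and adding it ended the call (limma adjusted p = 0.568). Pdgfb, a platelet-derived growth factor chain, had 0.0900 and 2.57 FPKM in Th2 against 11.8 and 12.1 FPKM in Th1. Its call ended with that library added (limma adjusted p = 0.136) and among genes of at least 10 FPKM in each pair (0.0793).

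Of 15 chemokine genes listed, 7 passed the filter, and most of these were lower in Th2. Of the 7, 5 were called lower and none higher, against 2.38% and 1.0% of all tested genes. The median difference was −2.81 without a vector and −3.31 with the control vector. In 1 of the pairs Xcl1, Ccl5 and Cxcl10 reached 3 FPKM in Th1 only. They thus passed the filter through the lineage where they were high, which the counts and the median partly reflect. Xcl1, lymphotactin, had 0.945 and 14.4 FPKM in Th2 against 414 and 317 FPKM in Th1. Ccl3, an inflammatory chemokine, had 25.6 and 18.7 FPKM in Th2 against 730 and 460 FPKM in Th1. Ccl5, also known as RANTES, had 4.55 and 1.39 FPKM in Th2 against 48.5 and 52.8 FPKM in Th1. In each of these the groups were separated by more than 3 on the log2 scale in both pairs. The means were −6.06 ± 0.65, −4.665 ± 0.35 and −3.82 ± 0.34 (limma adjusted p = 0.00129, 1.99e-04 and 5.15e-04). Ccl4 (−2.43 ± 0.46) and Cxcl10, the CXCR3 ligand induced by interferon (−3.00 ± 0.28), were also called, and both calls ended with the left-out Th1 library added (limma adjusted p = 0.188 and 0.865) and without the culture term (0.216 and 0.242). That of Ccl4 also ended in the fit over 12 libraries (0.0748). The left-out Th1 library had 3036 FPKM of Ccl4 and 1.48 FPKM of Cxcl10. The latter lay between the Th2 levels of Cxcl10, 5.32 and 0.730 FPKM. Reads of Ccl3 and Ccl4, which are related in sequence, could be split between them. Ccl1, a ligand of CCR8, went the other way with 383.5 and 504 FPKM in Th2 against 102 and 215 FPKM in Th1. It was not called (1.57 ± 0.41, limma adjusted p = 0.0903) but was called under upper-quartile scaling (0.01).

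Of 24 cytokine receptor genes, 1 was called higher and 6 lower. Il12rb2 (mm9 chromosome 6, 67242012 to 67326131) had 0.339 and 0.452 FPKM in Th2 against 99.9 and 60.0 FPKM in Th1, a difference of −5.81 ± 0.29 (limma adjusted p = 2.38e-05). Its partner chain Il12rb1 had 32.9 and 43.0 FPKM in Th2 against 7.14 and 28.1 FPKM in Th1, so the chains of this receptor stood in opposite order, although Il12rb1 was not called (1.33 ± 0.37, limma adjusted p = 0.114). The IL-18 receptor chains were both lower in Th2. Il18r1 had 8.46 and 1.90 FPKM in Th2 against 328 and 96.5 FPKM in Th1. Il18rap had 19.2 and 2.16 FPKM in Th2 against 217 and 46.2 FPKM in Th1. The groups did not overlap, and the differences were −5.10 ± 0.29 and −3.67 ± 0.29 (limma adjusted p = 4.21e-05 and 2.92e-04). Il1rl1, the receptor for IL-33 and known as a Th2 surface marker, was not higher in Th2. It had 44.3 and 3.16 FPKM in Th2 against 87.4 and 14.2 FPKM in Th1 and was called lower, close to the threshold (−1.42 ± 0.31, limma adjusted p = 0.0474). The left-out Th1 library had 7.75 FPKM of Il1rl1, and adding it ended the call (limma adjusted p = 0.937). Ifngr2, the second chain of the IFNG receptor, was the gene called higher, with 32.1 and 17.0 FPKM in Th2 against 4.57 and 6.68 FPKM in Th1 (1.90 ± 0.34, limma adjusted p = 0.02). Ifngr1, the ligand-binding chain, had 71.3 and 17.9 FPKM in Th2 against 135 and 95.8 FPKM in Th1 and was not called (limma adjusted p = 0.0702). Il6st, the shared gp130 chain, was lower by −1.70 ± 0.32, and Il10rb by −1.22 ± 0.25. The calls of Ifngr2, Il18rap, Il6st and Il10rb ended with the left-out Th1 library added (limma adjusted p = 0.296, 0.0946, 0.451 and 0.451). Il4ra, the IL-4 receptor chain, had 173 and 116 FPKM in Th2 against 84.4 and 92.0 FPKM in Th1 (0.68 ± 0.37, limma adjusted p = 0.505). The list had a median difference of −0.47 without a vector and −0.43 with the control vector.

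Of 12 chemoattractant receptors, 2 were called lower, 1 higher and 9 not called. Cxcr3, the receptor that guides Th1 cells to inflamed tissue, had 2.72 and 9.71 FPKM in Th2 against 150 and 35.5 FPKM in Th1. The pairs differed in size, at −5.35 and −1.77 (limma adjusted p = 0.0235 for the mean). Ccr8, a receptor of Th2 cells, had 121 and 71.4 FPKM in Th2 against 7.92 and 32.4 FPKM in Th1 (2.45 ± 0.54, limma adjusted p = 0.0478). The calls of Cxcr3 and Ccr8 ended with the left-out Th1 library added (limma adjusted p = 0.137 and 0.261), and that of Ccr8 also with a pseudocount of 3 (0.069), without the culture term (0.357) and in the fit over 12 libraries (0.118). Ccr4, also known from Th2 cells, had 94.5 and 92.1 FPKM in Th2 against 23.8 and 58.6 FPKM in Th1 and was not called (1.29 ± 0.39, limma adjusted p = 0.14). The list medians were 0.19 and −0.25, beside 0.01 and −0.08 over all genes.

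Among 20 costimulatory and inhibitory receptors, Tnfrsf8 was the only one called, beside 3.38% of all tested genes. This gene encodes CD30 and had 44.5 and 33.0 FPKM in Th2 against 0.920 and 1.12 FPKM in Th1. Its difference was 4.28 ± 0.27 (limma adjusted p = 7.28e-05). The left-out Th1 library had 9.78 FPKM of Tnfrsf8, still below both Th2 libraries, and with it the limma adjusted p was 0.133. Several others differed between the pairs. Ctla4, an inhibitory receptor, had 274 and 62.5 FPKM in Th2 against 144 and 306 FPKM in Th1, and Btla had 11.0 and 36.4 FPKM in Th2 against 145 and 64.2 FPKM in Th1. Neither was called (limma adjusted p = 0.759 and 0.0818), but Btla was called lower under both other scalings (0.00202 and 0.00345). Under upper-quartile scaling 2 members of the list were called higher and 6 lower, so the count of 1 and 0 rests on the values as deposited.

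**Figure D3:**
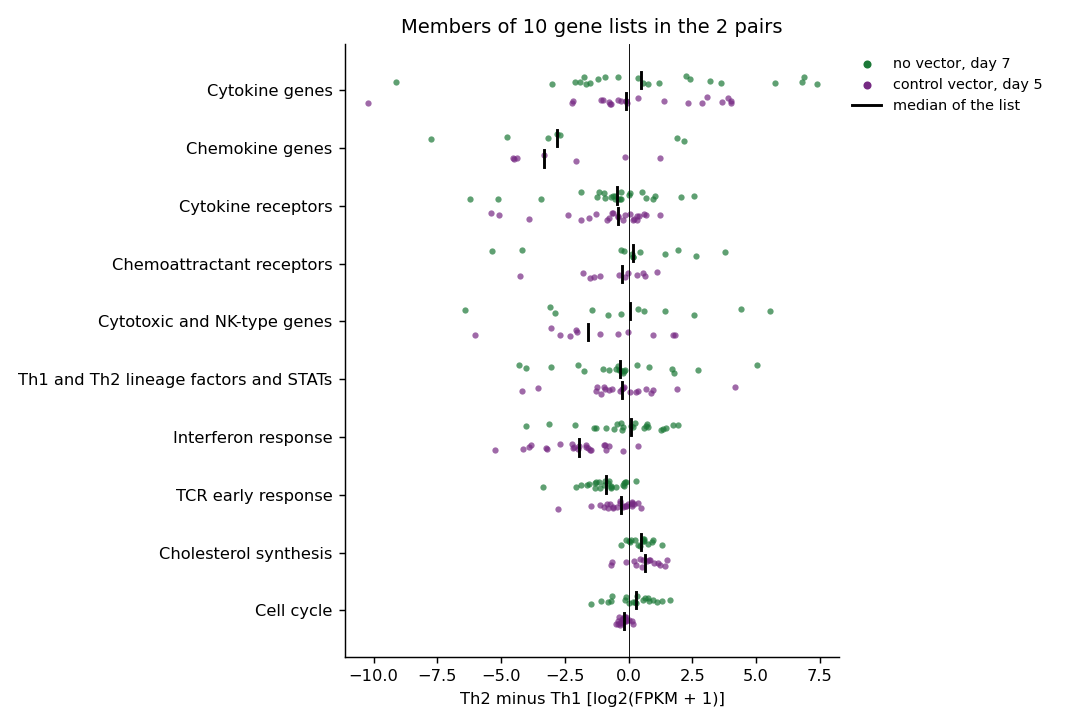
Th2 minus Th1 difference in log2(FPKM + 1) (x axis) of every tested member of 10 gene lists (rows), in the no-vector pair (green) and the control-vector pair (purple). Black bars are list medians, which lie at −2.81 and −3.31 for chemokine genes and at 0.09 and −1.95 for interferon response genes.

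Of 12 cytotoxic and NK-type genes, 3 were called lower and 1 higher. Nkg7, a granule membrane protein needed for degranulation, had 2.64 and 1.47 FPKM in Th2 against 306 and 158 FPKM in Th1, which put it among the genes furthest from 0 (−6.20 ± 0.29, limma adjusted p = 1.83e-05). Crtam and Ctsw were lower by −2.97 ± 0.27 and −2.56 ± 0.33 (limma adjusted p = 5.40e-04 and 0.00392). Cst7, cystatin F, a protease inhibitor of granules, had 267 and 163 FPKM in Th2 against 44.9 and 45.0 FPKM in Th1. It was higher by 2.19 ± 0.36 (limma adjusted p = 0.014). Adding the left-out Th1 library ended the calls of Crtam, Ctsw and Cst7 (limma adjusted p = 0.335, 0.0677 and 0.144). The granzymes did not hold one direction. Gzmb had 1150 and 94.0 FPKM in Th2 against 53.1 and 395 FPKM in Th1, so it was the higher of the pair in Th2 without a vector and the lower with the control vector. Gzma had 244 and 4.96 FPKM in Th2 against 4.28 and 2.09 FPKM in Th1 and was not called (3.24 ± 0.82, limma adjusted p = 0.0767), although it was under both other scalings (1.27e-04 and 1.34e-04). The list median was 0.04 without a vector and −1.58 with the control vector, beside 0.01 and −0.08 over all genes.

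Of the 15 genes called higher in Th2 with the largest smaller pair difference, several encode receptors or channels outside the cytokine families. Calcrl (mm9 chromosome 2, 84170783 to 84265423), which with a RAMP protein forms the receptor for CGRP or adrenomedullin, had 95.4 and 118 FPKM in Th2 against 2.77 and 3.66 FPKM in Th1. The pair differences were 4.67 and 4.68, and the mean was 4.68 ± 0.27 (limma adjusted p = 4.64e-05). Htr1b, a serotonin receptor, had 39.1 and 19.5 FPKM in Th2 against 0.159 and 0.225 FPKM in Th1 (4.59 ± 0.33, limma adjusted p = 1.42e-04). Cyp11a1, which converts cholesterol to pregnenolone, had 91.7 and 6.81 FPKM in Th2 against 4.58 and 1.52 FPKM in Th1. It was called (2.84 ± 0.48, limma adjusted p = 0.0162), but not with the left-out Th1 library (0.118), in the fit over 12 libraries (0.331) or with a pseudocount of 3 (0.0547). Calcrl, Htr1b and Cyp11a1, the last not among the 15, belong to the list of eicosanoid, neuropeptide and small-molecule signalling genes. In that list Nt5e, the enzyme CD73 that forms adenosine, was lower by −1.60 ± 0.26 (limma adjusted p = 0.0124, and 0.44 with the left-out library). In all, 3 of its 12 tested members were called higher and 2 lower, with list medians of 0.11 and −0.03. Ramp3, a partner of CALCRL, had 31.0 and 50.2 FPKM in Th2 against 23.7 and 74.2 FPKM in Th1 and was not called (limma adjusted p = 0.96).

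Other genes called higher with the largest smaller pair difference ranged in kind. Rnd3, an atypical small GTPase, had 32.0 and 24.0 FPKM in Th2 against 0.350 and 0.317 FPKM in Th1 (4.43 ± 0.28, limma adjusted p = 7.28e-05). Efna5, an ephrin, had 7.27 and 12.2 FPKM in Th2 against 0.00485 and 0.103 FPKM in Th1. Trpm6, a magnesium channel, had 16.4 and 9.58 FPKM in Th2 against 0.0268 and 0.310 FPKM in Th1. Both lay below 1 FPKM in the Th1 libraries, and their limma adjusted p-values were 0.00108 and 9.48e-04. Pdlim4, a PDZ and LIM domain protein, had 16.2 and 10.2 FPKM in Th2 against 0.421 and 0.495 FPKM in Th1. The gene 1700025K23Rik had 142 and 18.1 FPKM in Th2 against 0.979 and 0.827 FPKM in Th1, its call ended without the culture term, at the same limma adjusted p as that of Ly6c2 (0.0849), and reads could be shared with the adjacent Tube1. Snora2b, a small nucleolar RNA, was listed at 57.0 and 56.4 FPKM in Th2 and at 0 in both Th1 libraries. It was also listed at 0 in both factor-vector libraries described below, and for so short a gene the FPKM is uncertain. Of 38 small RNA genes tested, 3 were called, all higher in Th2.

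Among the lower genes, Plac8, a small cysteine-rich protein of lymphocytes and myeloid cells, had 5.43 and 1.28 FPKM in Th2 against 1008 and 178 FPKM in Th1 (−6.80 ± 0.34, limma adjusted p = 2.38e-05). Ly6c2 and Ly6c1, surface antigens of effector and memory T cells, were lower by −5.31 ± 0.28 and −3.76 ± 0.26 (limma adjusted p = 2.68e-05 and 1.10e-04). They are near-identical copies, and how reads were divided between them is uncertain. Ifitm1, an interferon-induced membrane protein, had 5.61 and 1.27 FPKM in Th2 against 108 and 41.2 FPKM in Th1 (−4.13 ± 0.26, limma adjusted p = 7.28e-05). Ubd, a ubiquitin-like protein also known as FAT10, was listed at 0 and 0.0407 FPKM in Th2 against 11.98 and 20.2 FPKM in Th1. The left-out Th1 library had 0.491 FPKM of Ubd, and with it the limma adjusted p was 0.421.

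Of 13 adhesion and selectin ligand genes, 2 were called lower and 1 higher, and 11 estimates were below 0. Icam1, the ligand of LFA-1, had 11.6 and 16.9 FPKM in Th2 against 83.04 and 126 FPKM in Th1 (−2.78 ± 0.30, limma adjusted p = 0.00131). Itgb3, the integrin beta-3 chain, had 96.5 and 70.5 FPKM in Th2 against 32.4 and 16.0 FPKM in Th1 (1.81 ± 0.32, limma adjusted p = 0.0184). The groups were separate for both genes, but the call of Itgb3 ended with the left-out Th1 library (limma adjusted p = 0.202). The list medians were −0.61 and −0.80.

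Interferon response genes set the pairs apart. Interferons act through STAT proteins to induce GTPases, antiviral enzymes and antigen-processing genes. In the control-vector pair 17 of 23 tested genes were at least 2-fold lower in Th2 and none was higher, with a median difference of −1.95. Over all tested genes 4.98% were 2-fold lower and 1.71% higher in that pair. In the no-vector pair 5 of the 23 were lower and 5 higher, with a median of 0.09, against 7.12% and 8.85% of all tested genes. The list median level was 35.3 FPKM in Th2 and 37.4 FPKM in Th1 without a vector, and 9.09 FPKM in Th2 and 35.2 FPKM in Th1 with the control vector, so the control-vector Th2 library stood below the other 3. Isg15, a ubiquitin-like modifier, had 59.3 and 1.95 FPKM in Th2 against 35.5 and 26.7 FPKM in Th1. Ifit1, which binds viral RNA, had 39.3 and 0.121 FPKM in Th2 against 25.3 and 3.97 FPKM in Th1. Neither was called (limma adjusted p = 0.541 and 0.638). Over both pairs 5 genes were called lower, and these were the GTPases Gbp2, Gbp3, Gbp5, Igtp and Iigp1, which act in defence against intracellular microbes. Gbp2 had 49.6 and 12.9 FPKM in Th2 against 815 and 516 FPKM in Th1 (−4.62 ± 0.41, limma adjusted p = 5.15e-04). Gbp3 had 20.9 and 2.91 FPKM in Th2 against 190 and 58.3 FPKM in Th1, and Igtp had 94.0 and 38.0 FPKM in Th2 against 239 and 176 FPKM in Th1. With the left-out Th1 library none of the 5 was called (limma adjusted p = 0.0934 to 0.75), although all kept their direction. Reads of the GBP genes, which resemble each other and lie side by side, could be shared.

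**Figure D4:**
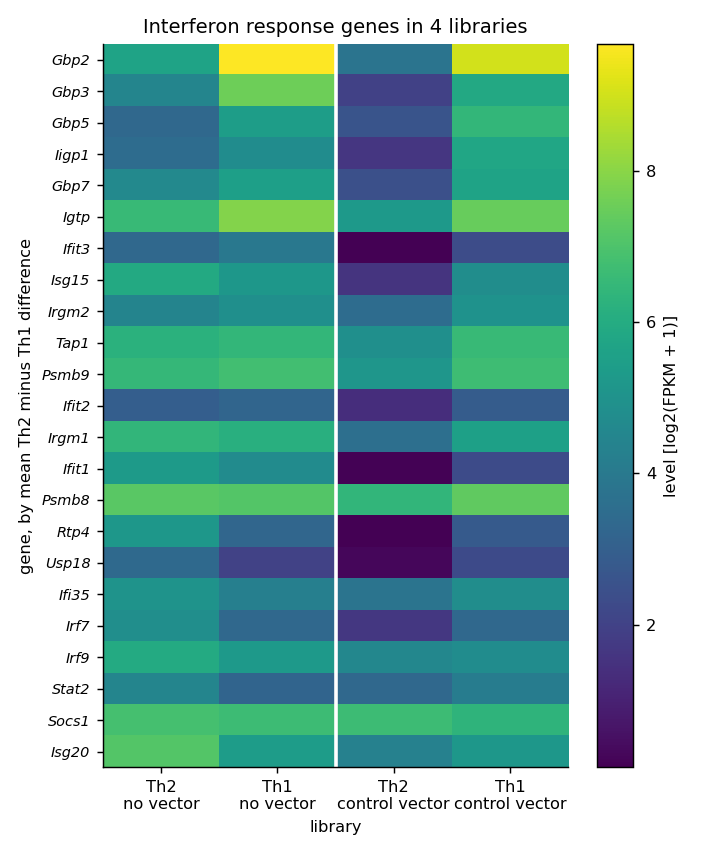
Level in log2(FPKM + 1) (colour) of the 23 tested interferon response genes (rows, ordered by mean Th2 minus Th1 difference) in the 4 libraries (columns). The third column, Th2 with the control vector, is the darkest in most rows, with a median of 9.09 FPKM against 35.2 to 37.4 FPKM in the other 3 columns.

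Genes of the early response to the T cell receptor include AP-1, EGR and NR4A factors that appear soon after stimulation. Of 24 tested, 23 had an estimate below 0 and 2 of these were called lower, while over all genes 4280 of 8077 estimates were below 0. The median difference was −0.87 without a vector, where 10 were at least 2-fold lower, and −0.28 with the control vector, where 3 were. Jun, an AP-1 subunit, had 6.14 and 6.35 FPKM in Th2 against 72.1 and 48.9 FPKM in Th1 (−3.06 ± 0.29, limma adjusted p = 6.57e-04), and the groups were well apart. Dusp1, a phosphatase of MAP kinases, had 5.43 and 12.3 FPKM in Th2 against 17.8 and 36.0 FPKM in Th1 (−1.51 ± 0.26, limma adjusted p = 0.017, and 0.279 with the left-out Th1 library). Egr1, a zinc finger factor of the same early wave, had 184 and 154 FPKM in Th2 against 447 and 139 FPKM in Th1 and was not called (limma adjusted p = 0.69). Levels of Egr1, Egr2, Egr3, Nr4a1 and Nr4a3 in the control-vector Th2 library were 154, 103, 110, 859 and 296 FPKM, against 139, 106, 100.3, 620 and 335 FPKM in the control-vector Th1 library. Of 12 STAT feedback genes, Pim2, a survival kinase, was the only one called, with 16.6 and 38.8 FPKM in Th2 against 94.8 and 89.2 FPKM in Th1 (−1.81 ± 0.38, limma adjusted p = 0.0378, and 0.279 with the left-out library). Socs1, an inhibitor of cytokine signalling, had 115 and 102 FPKM in Th2 against 101.3 and 79.7 FPKM in Th1, within the spread (0.26 ± 0.34, limma adjusted p = 0.839).

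In the metabolic and cell cycle lists no gene was called by limma. Of 16 cholesterol synthesis genes, 14 had an estimate above 0, against 3797 of 8077 over all genes, and the list medians were 0.50 and 0.63. Sc4mol, a sterol oxidase, had 144 and 43.1 FPKM in Th2 against 57.7 and 15.4 FPKM in Th1 and lay just outside the threshold (1.36 ± 0.31, limma adjusted p = 0.0527). It and Lss, lanosterol synthase (1.09 ± 0.26, 0.0659), were the 2 genes called in this list under upper-quartile scaling (limma adjusted p = 0.00875 and 0.0176). Glycolysis had medians of 0.04 and −0.20 over 16 genes, and cell cycle 0.28 and −0.19 over 20 genes. In the cell cycle list the pairs differed, with Mcm2, a helicase subunit for DNA replication, at 22.6 FPKM in Th2 against 6.65 FPKM in Th1 without a vector, and at 44.7 FPKM in Th2 against 39.4 FPKM in Th1 with the control vector.

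Genes called in the same direction often lay near each other. Of the 81 genes called higher, 18 (22.2%) had another such gene with its start within 500 kb (mm9), against 353 of 7950 other tested genes (4.44%). For the genes called lower with a single locus it was 62 of 187 (33.2%), against 1011 of 7844 (12.9%). Related genes in a row share an origin, so these are not independent draws, and no test was made. On chromosome 1, at 132762354 to 132921547, Il24, Il10, Il19 and Faim3 were all called higher in Th2. On chromosome 11, at 53425963 to 53882519, Il4, Il5 and Pdlim4 were called higher, while Il13, which lies between Il4 and Il5, was not. Elsewhere on chromosome 1, at 40496494 to 40606142, Il1rl1, Il18r1 and Il18rap were called lower. The chemokine genes Ccl5, Ccl3 and Ccl4 lay with Dusp14 at 83339281 to 83881859 on chromosome 11. On chromosome 17, 5 H2-Q genes of MHC class I at 35516562 to 35580718 were called lower, and as close copies they may share reads.

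Motif matches were counted in the 300-base promoter windows, which RefSeq gave for 56 of the 81 genes called higher, 144 of the 187 called lower and 5831 of 8031 tested. The STAT motif TTCNNNGAA was in 20 of the 144 windows of genes lower in Th2 (13.9%), in 4 of the 56 of genes higher in Th2 (7.14%) and in 6.93% of windows of all tested genes. The STAT6 motif with a spacing of 4 was in 7 of the 56 windows of genes higher in Th2 (12.5%), in 7 of the 144 of genes lower in Th2 (4.86%) and in 5.23% of all tested. The GATA motif AGATAA was in 10.7% of windows of genes higher in Th2, 10.4% of those lower and 5.92% of all tested, and the T-box core GGTGTGA in 3.57%, 5.56% and 3.28%. Over all 27025 windows in the RefSeq table the shares were 8.42%, 7.0%, 11.4% and 3.96%, in the order STAT, STAT6, GATA and T-box. Both strands were searched, and the motifs do not contain one another. The counts are small and carry no test, and a match is a description of letters, not a bound site.

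A further pair of wild-type libraries took no part in the fit. These were WT Th2 cells with a GATA3 vector and WT Th1 cells with a T-bet vector, labelled day 5 and 1 library each. Each lineage thus carried its own factor in excess, and a difference has no replicate check. The Th1 culture was restimulated for 2 h, and the sources used here do not say whether the Th2 culture was. As in the control-vector pair, lineage and restimulation cannot be told apart here, so the shares below are no independent check on that point. Of the 81 genes called higher in Th2, 66 (81.5%) were at least 2-fold higher in this pair, against 3.81% of all tested genes, and none was 2-fold lower. Of the 192 genes called lower, 145 (75.5%) were 2-fold lower, against 4.82% of all tested genes, and 2 were 2-fold higher. The median difference of the called genes was 1.74 for those higher and −1.64 for those lower, against −0.08 over all tested genes. Il5, at 2.39 and 3.68 in the pairs of the fit, was 5.47 higher here, and Il13, at 2.27 and −0.11, was 1.87 higher. Some genes went against the fit. Il1rl1, called lower in Th2, was 2.81 higher in this pair. Tnfsf4 was −0.26 and Ccr8 0.05 here, near no difference, against −4.24 and 2.45 in the fit.

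**Figure D5:**
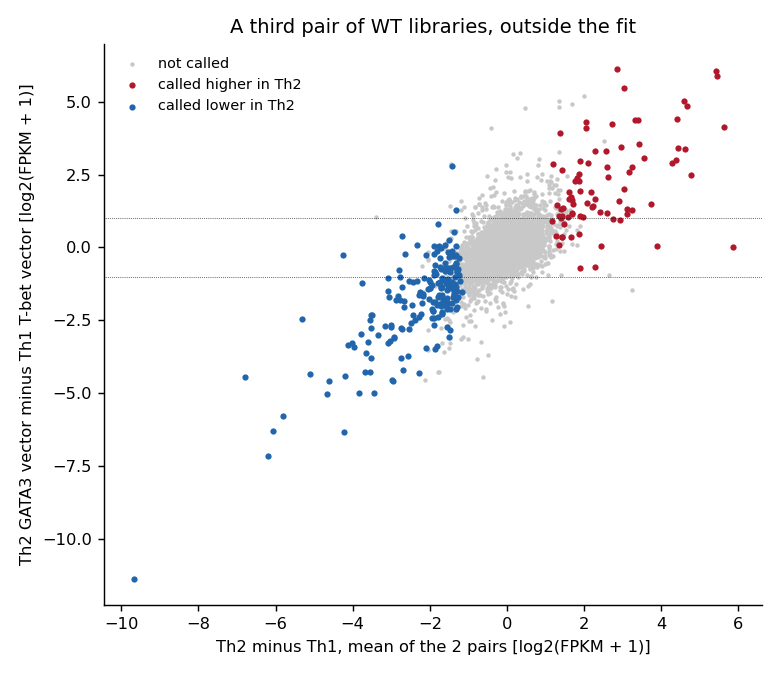
Th2 minus Th1 difference in log2(FPKM + 1) in the pair with the GATA3 and T-bet vectors (y axis) against the mean difference of the 2 pairs in the fit (x axis), for the 8077 tested genes. Of the red points (81 called higher in Th2) 66 lie above the upper dotted line at 2-fold, and of the blue points (192 called lower) 145 lie below the lower one.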

How the data were processed

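RNA was measured in mouse CD4 T helper cells. Per the labels' protocols, RNA from the mirVana kit went into TruSeq libraries that were read as single reads by a HiSeq sequencer. The deposited gene tables hold FPKM values and their bounds, in the layout of Cufflinks per the file headers. The submitters' processing notes name TopHat, Cufflinks, SICER and build mm9 for the series; the sources used here do not give versions, gene annotation or use of strand, so reads of overlapping and antisense genes cannot be told apart. FPKM tie each gene to the total of its library, so a few very high genes such as Ifng can lower all others.

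Of 23700 entries, 22 whose estimate failed in at least 1 of the 4 libraries were left out. Another 241 symbols listed at several loci (713 entries, 46 of them tested) were tested but not named. Genes were tested by limma 3.58.1 under R 4.3.3, with lmFit and a trended eBayes, on log2(FPKM + 1), with terms for lineage and culture and 1 residual degree of freedom, so that the spread is the disagreement between the pairs, moderated across genes. In simulated libraries of 8077 genes it called 11 of 100 genes changed by 1, 89 of 100 changed by 2, and 11 unchanged genes. The unchanged genes were thus a larger share of the calls than the 0.05 of the threshold, in a single simulation. Noise in the simulated libraries was drawn from the fitted model, so the simulation cannot show whether that model holds for the real libraries. A single pair has no test. The counts of genes, sums and motif matches were made in Python 3.11.15.

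The members, the 17 gene lists and the tests were chosen with earlier results of these data known. Named were, among called genes 2-fold in both pairs, the 15 in each direction with the largest smaller pair difference; 10 lineage genes; up to 4 called members of each list in each direction, with uncalled members for comparison; and the 5 genes with the largest opposite differences. Il10, Il17f, Csf1, Ccl4, Il10rb, Il1rl1, Iigp1, Il19, Faim3, Dusp14 and Tube1 were named after their values were seen. Alternatives were other pseudocounts, filters and scalings, a fit without culture, and the left-out WT Th1 library added. A further alternative was an additive fit over 12 libraries of the series, STAT4 and STAT6 knockouts among them. Some genes chosen by these rules are not reported here.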

Additional observations from a re-analysis of the deposited data

Results flagged for a closer look

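Of the tested genes, 28 were at least 2-fold different in opposite directions in the 2 pairs, 25 of them higher in Th2 without a vector and lower in Th2 with the control vector. With 1 library a group, these differences between the pairs were not tested. Among those with 1 locus, the 5 with the largest smaller pair difference follow. Mir20a differed by −6.39 without a vector and 6.68 with the control vector. It was listed at 0 and 101.3 FPKM in the Th2 libraries against 82.9 and 0 in the Th1 libraries, and as a microRNA precursor it is too short for a firm FPKM. Gm12238 differed by −5.72 and 4.46, with 0 and 21.1 FPKM in Th2 against 51.7 and 0 in Th1. Gzmb, granzyme B, differed by 4.41 and −2.06. Rtp4, an interferon-induced chaperone of receptors, differed by 1.92 and −2.69, with 35.3 and 0.0866 FPKM in Th2 against 8.56 and 6.03 FPKM in Th1. Slpi, a secreted protease inhibitor, differed by 1.65 and −2.09, with 12.7 and 0.933 FPKM in Th2 against 3.38 and 7.25 FPKM in Th1.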

How the results depend on the processing

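No paired analysis was possible because the groups share fewer than 2 replicate numbers, apart from the pairing by culture that the fit already holds as a term. The deposited values gave 81 genes called higher and 192 called lower in Th2. Over the same genes limma called 185 and 342 under upper-quartile scaling, 180 and 303 under quantile normalization, and 16 and 21 without the culture term. It called 161 and 582 in the additive fit over 12 libraries and 20 and 29 with the left-out WT Th1 library, replicate 2, added. These last fits tested 7994 genes, as entries whose estimate failed in any RNA library were left out. With no filter on low values it called 0 and 0, where 1625 of 23678 genes had an unadjusted p under 0.05, against 1089 of 8077 with the filter. All 273 genes remained called under both scalings, 234 of them in the 12-library fit, and the 49 and 37 genes called with replicate 2 or without the culture term were all among the 273, with the same sign. Pseudocounts of 0.1 and 3 gave 83 and 199, and 64 and 151. A minimum of 10 FPKM gave 60 and 142. The genes 2-fold in both pairs (91 higher, 222 lower) became 58 higher at a minimum of 10 FPKM. At 4-fold they were 31 and 58. The no-vector pair alone gave 715 and 575, and the control-vector pair alone 138 and 402. The unfiltered fit also held more genes, and its prior degrees of freedom were 0.703 against 7.73 with the filter. Under upper-quartile scaling and quantile normalization they were 24.3 and 20.0, so a gene's own spread counted less there. The cause of each of these moves was not tested. Of 67 called genes in the lists or named, none changed direction under any alternative run. Most were already 2-fold in the same direction in both pairs, so the runs on a single pair could not change it. Most other runs reuse the same 4 libraries, so the kept direction is largely set by how the genes were chosen. All 67 kept their call under both scalings, 31 with replicate 2 added, 25 without the culture term and 57 in the 12-library fit. Depth limits genes near 3 FPKM, and 1 library a group limits every difference.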

Other observations

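Of the 25 genes that were higher in Th2 without a vector and lower in Th2 with the control vector, the following were picked after their values were seen, so no test was made. Zbp1, an interferon-induced sensor of nucleic acids, had 132 and 14.1 FPKM in Th2 (no vector, then control vector) against 57.0 and 41.9 FPKM in Th1. Bst2, tetherin, had 84.0 and 16.5 FPKM in Th2 against 24.1 and 38.3 FPKM in Th1. Oas3, an antiviral oligoadenylate synthetase, had 17.6 and 2.75 FPKM in Th2 against 3.57 and 7.24 FPKM in Th1. Irf7, the interferon regulatory factor that amplifies type I interferon, had 27.4 and 2.19 FPKM in Th2 against 9.29 and 9.11 FPKM in Th1. In each of the 4 genes the no-vector Th2 library was the highest of the 4 libraries and the control-vector Th2 library the lowest. S100a4, a calcium-binding protein of motile cells, had 13.2 and 1.85 FPKM in Th2 against 5.81 and 22.2 FPKM in Th1, with the control-vector libraries at either end.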
